A study of Homo sapiens with 15 samples.

Results

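Immortalized human astrocytes given doxycycline for 7 days were compared with untreated cells of the same line, over the b1 and b2 libraries together and with an eye to genes and processes beyond chemokines, collagens and the amino acid response. The libraries were chosen by their labels alone, and they are 11 of the 15 in the series: 3 untreated libraries of b1, 3 untreated libraries of b2, 1 day 7 library of b1 (b1-13) and 4 day 7 libraries of b2 (b2-17 to b2-20). The tags b1 and b2 stand in the sample titles and were taken as a batch. IHA are fetal astrocytes immortalized with SV40, grown here in medium with EGF, and all samples carry the genotype label of wild-type IDH1. Doxycycline at 1 µg/ml was given to switch on a mutant IDH1, which the design text names as R132H. Each library was made by bulk MARS-seq, which counts 3′ ends of transcripts as unique molecular identifiers (UMIs). Doxycycline without the inducible gene was not analysed here, and the untreated samples carry no day, so induction, the drug itself and time in culture cannot be told apart. Separate cultures are not named for the samples of a group, so the p-values below measure the spread between these samples only.

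Wild-type IDH1 oxidizes isocitrate to 2-oxoglutarate in the cytosol, and the mutant form makes 2-hydroxyglutarate, which can inhibit dioxygenases that demethylate histones and DNA. Astrocytes secrete growth factors, proteases, prostaglandins and cytokines, and in culture they resemble reactive glia in several of these respects. In these libraries IDH1 itself stood at 36.8, 35.1 and 35.9 CPM (UMI counts set to a common library size, with TMM scaling) in untreated b1 and at 43.4 CPM in the day 7 library of b1. It stood at 32.8, 26.4 and 35.3 CPM in untreated b2 and at 28.6, 37.7, 36.6 and 38.6 CPM at day 7 of b2, where the groups overlapped. Its log2 change of 0.22 ± 0.11 (SE) missed the threshold (edgeR adjusted p = 0.178). Which 3′ end the induced gene carries is not stated, and whether UMIs of it reach the IDH1 count is unknown.

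The libraries held 2573290 to 5567651 UMIs over 15230 listed genes. Along the first principal component of the 12449 tested genes (55.8% of the variance) b1 parted from b2, and along the second (13.9%) untreated parted from day 7 libraries in both batches. One property of the transcripts moved with the day 7 libraries: with genes in 5 equal bins of transcript length, the median log2 deviation from the batch's untreated mean was 0.355 lower in the longest bin (5737 to 34526 nt) than in the shortest (207 to 1969 nt) in the day 7 library of b1. The same difference was -0.152, -0.102, -0.0024 and -0.164 in b2-17, b2-18, b2-19 and b2-20, and it lay between -0.049 and 0.031 in the 6 untreated libraries. Day 7 library b2-19 thus overlapped the untreated ones and the other 4 lay below them. In the shortest bin 15.8% of genes were called higher and 6.40% lower, against 4.45% higher and 10.8% lower in the longest. Below, a list's counts of higher and lower genes, in that order, are given also from a fit with this trend taken out, from scaling by library size alone and as the range over the 11 fits that left out 1 library, where a count moved by at least 1.5 times or the balance turned. With 1 library left out that was so for 39 of the 41 lists: 26 of them without untreated b2-1, 21 without day 7 b1-13, 19 without untreated b2-2, 18 without b2-20 and 5 to 14 without each other library. Length was known for 90.3% of tested genes.

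**Figure D1:**
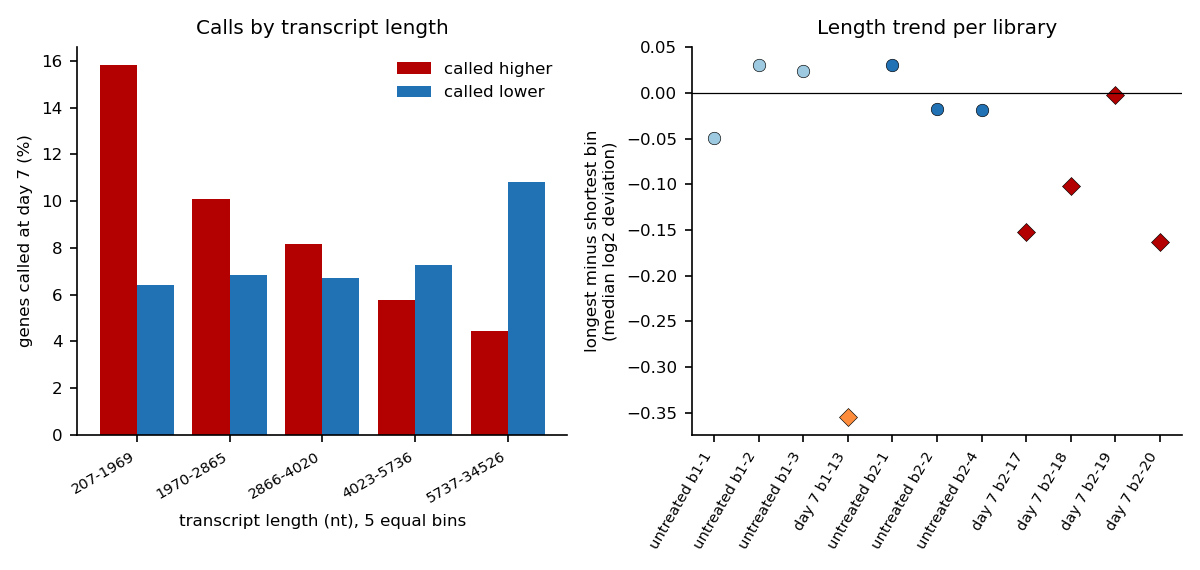
Left, share of tested genes called higher (red) or lower (blue) at day 7 in 5 equal bins of transcript length (nt). Right, for each library, the median log2 deviation of the longest bin minus that of the shortest, circles for untreated and diamonds for day 7, where b1-13 is lowest at -0.355 and b2-19 lies among the untreated libraries.

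The labelled cell type was read against marker genes. Of 17 astrocyte markers 11 were listed, VIM at 6211 to 8160 CPM by group mean and CD44, GLUL, GJA1 and SOX9 among them. By group mean S100B was at most 1.21 CPM, NFIA at most 2.30 CPM and SLC1A3 at most 5.58 CPM. GFAP, AQP4, ALDH1L1, SLC1A2, FABP7 and AGT had no listed value and were not analysed here. The summed astrocyte markers, mostly from VIM, ran from 6931 to 8462 CPM in untreated and from 7077 to 10150.3 CPM in day 7 libraries. Of them 2 were called higher, SOX9 (log2 change 0.64) and CD44 (0.40), and 2 lower, ALDOC (-0.83) and CLU (-0.32). Neuron markers summed to 13.2 to 18.4 CPM over all libraries, with RBFOX3, TUBB3 and DCX without a listed value, and microglia markers to 33.3 to 62.8 CPM, nearly all from CD68, with AIF1, P2RY12 and PTPRC without one. Endothelial markers summed to 19.1 to 28.8 CPM untreated and 11.5 to 16.4 CPM at day 7, with PECAM1, CDH5 and VWF without one. Fibroblast markers, led by collagen I, summed to 1034 to 1114 CPM untreated and 1025 CPM at day 7 in b1. In b2 they summed to 859 to 904 CPM untreated and 467 to 668 CPM at day 7. Keratinocyte and epithelial markers, led by KRT18, summed to 1119 to 1169.9 CPM untreated and 833 CPM at day 7 in b1. In b2 these markers summed to 732 to 777 CPM untreated and 697 to 749 CPM at day 7, so the groups overlapped there. The part of any of these in the results was not tested, and in bulk libraries fewer cells of a type and less RNA per cell cannot be told apart.

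At day 7 many genes differed by a little and few by a lot. With edgeR's quasi-likelihood test and a batch term, 1955 of 12449 genes passed (15.7%, Benjamini-Hochberg adjusted p under 0.05), 1049 of them higher (8.43%) and 906 lower (7.28%). These shares are the background against which the members of each list below are read. The median size of a called change was 1.35-fold, 69.7% of the calls were under 1.5-fold, and 76 genes rose and 100 fell at least 2-fold. With library size alone as the scale, 667 rose and 1429 fell. In each of the 11 fits that left out 1 library, 956 of the 1955 passed in the same direction. The lowest count of calls in those fits was 1405, without untreated b2-1. In the authors' deposited table for the same libraries 1670 genes had an adjusted p under 0.05, 1024 of them higher and 646 lower at day 7, and 1567 of these were called here in the same direction.

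Because b1 has 1 day 7 library, the b2 calls were also read in b1, whose libraries did not enter them. Within b2 alone 1744 of 12032 genes passed (14.5%), 969 higher (8.05%) and 775 lower (6.44%). Of the 969, 775 were also higher in b1 (80.0%, against 47.8% of all tested genes), and 682 lay above all 3 untreated b1 libraries (70.4%, against 34.4%). Of the 775 called lower in b2, 566 were also lower in b1 (73.0%, against 52.2%) and 449 lay below all 3 untreated b1 libraries (57.9%, against 36.0%). Their median log2 change was 0.44 in b2 and 0.27 in b1 for the higher genes, and -0.53 in b2 and -0.22 in b1 for the lower ones. Genes chosen by passing in b2 favour a larger size there. The b2 change is from edgeR and the b1 change is of mean CPM with 0.5 added, so the sizes are not compared. Without untreated b2-2 the b2 calls numbered 955, and without untreated b2-4 they numbered 1114.

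**Figure D2:**
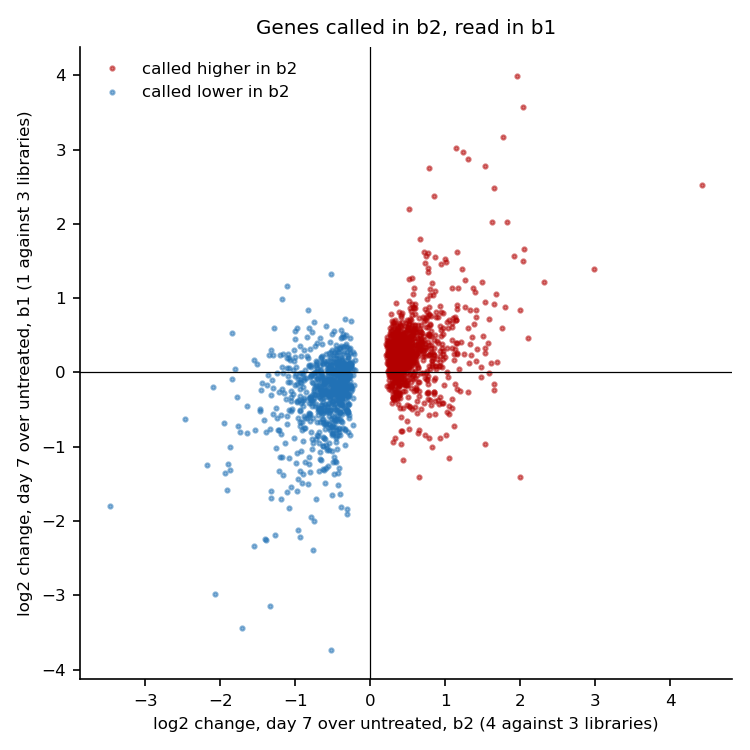
Each point is a gene called at day 7 in b2 alone, by its log2 change in b2 (x) and in b1 (y, 1 day 7 against 3 untreated libraries). Red points were called higher and blue points lower in b2. Of the red, 775 of 969 lie above 0 in b1, and of the blue, 566 of 775 lie below it.

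Outside the chemokines, collagens and the amino acid response, the largest rises included genes of secreted and membrane proteins. A change written with ± is a log2 change and its SE. TMEM158, a membrane protein first found as a target of RAS signalling (chromosome 3, 45224466 to 45226287, GRCh38.p14), stood at 172, 168 and 173 CPM in untreated b1 and at 375 CPM in the b1 day 7 library. In b2 it stood at 169.7, 182 and 176 CPM untreated and at 441, 442, 447 and 462 CPM at day 7. The groups were far apart in both batches, and the log2 change was 1.29 ± 0.063 (SE, edgeR adjusted p = 9.2e-13). SLC22A23, an orphan transporter of the organic ion family, stood at 16.7, 19.5 and 16.4 CPM untreated and 37.9 CPM at day 7 in b1, and at 12.6, 15.3 and 13 CPM untreated and 31.3, 32.8, 37.5 and 40.8 CPM at day 7 in b2. Its log2 change was 1.30 ± 0.12 (edgeR adjusted p = 1.1e-07). STC1, a secreted glycoprotein that acts on calcium and phosphate transport, stood at 47.5, 42.5 and 45.9 CPM untreated and 76.1 CPM at day 7 in b1, and at 21.4, 25.7 and 18.4 CPM untreated and 62.6, 52.7, 58.1 and 59.8 CPM at day 7 in b2 (log2 change 1.17 ± 0.12). ATOH8, a basic helix-loop-helix factor, rose by 1.20 ± 0.11 log2, and C1QTNF1, a secreted protein of the C1q and TNF family, by 1.09 ± 0.13 log2. PMEPA1, which restrains TGF-beta signalling, rose by 0.94 ± 0.11 log2. All 6 lay above the untreated libraries of their batch in every day 7 library. Over all tested genes, day 7 and untreated libraries did not overlap within b1 and within b2, in the same direction, for 1752 of 12449 (14.1%). The largest changes were picked among genes with every day 7 library on the same side of its batch's untreated mean, which favours such separation. C1QTNF1 rose more in b1 (1.60 log2) than in b2 (0.77 log2, edgeR interaction adjusted p = 0.009). In the other table with counts, the same 5 b2 libraries gave a log2 difference of 0.64 for ATOH8 against 1.17 in the table used here, and 1.37 for PMEPA1 against 0.92.

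PGF, placental growth factor and a ligand of the VEGF receptor FLT1, stood at 109, 115 and 108 CPM in untreated b1 and 168 CPM at day 7 of b1, and at 48.3, 45.5 and 41.1 and 114, 118, 109 and 98.1 CPM in the same order in b2. Its log2 change was 1.06 ± 0.10 (edgeR adjusted p = 4.6e-07), larger in b2 (1.30) than in b1 (0.60, interaction adjusted p = 0.018). IL11 and IL6, cytokines that signal through gp130, rose more in b1 (interaction adjusted p = 0.00268 and 1.7e-05, edgeR). IL6 stood at 49.3, 46.8 and 47 CPM untreated and 166 CPM at day 7 in b1, and at 93.9, 98.9 and 99.4 CPM untreated and 161, 147, 155 and 145 CPM at day 7 in b2. IL11 stood at 194, 187 and 195 CPM untreated and 569.9 CPM at day 7 in b1, and at 244, 286 and 321 CPM untreated and 405, 475, 458 and 525 CPM at day 7 in b2. ZC3H12A, the endonuclease Regnase-1 that cuts inflammatory transcripts such as that of IL6, rose by 1.04 ± 0.17 log2 (edgeR adjusted p = 0.000372). INA, the neuronal intermediate filament protein internexin, stood at 32.6, 29.2 and 30.2 CPM untreated and 38.3 CPM at day 7 in b1, and at 6.07, 9.47 and 6.48 CPM untreated and 24.3, 16.1, 19.5 and 20.1 CPM at day 7 in b2, a larger change in b2 (interaction adjusted p = 0.0349, edgeR). The day 7 libraries of these 5 genes lay above every untreated library of their own batch.

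Genes of lower level (mean of 2 to 20 CPM) were taken separately. KCNAB1, a cytosolic beta subunit of voltage-gated potassium channels, stood at 0.245, 0.779 and 0.222 CPM untreated and 4.78 CPM at day 7 in b1, and at 0.971, 0.364 and 1.80 CPM untreated and 17.6, 21.6, 19.5 and 19.6 CPM at day 7 in b2. It was counted with 1 to 112 UMIs per library, with a log2 change of 4.24 ± 0.27 (edgeR adjusted p = 2.6e-10). ANXA10, an annexin, rose by 1.94 ± 0.18 log2, with 3.96 to 8.20 CPM in the untreated and 17.5 to 25.4 CPM in the day 7 libraries. CSF3, the granulocyte growth factor, rose by 2.80 ± 0.33 log2, and C3, the central complement component, by 2.23 ± 0.25 log2, both more in b1 (interaction adjusted p = 0.00365 and 0.0139, edgeR). TRH, the thyrotropin-releasing hormone precursor, stood at 6.62, 5.85 and 3.77 CPM untreated and 1.20 CPM at day 7 in b1, and at 7.53, 11.8 and 7.92 CPM untreated and 1.07, 0.864, 0.872 and 0.446 CPM at day 7 in b2 (log2 change -3.29 ± 0.32, edgeR adjusted p = 2.0e-07). QPRT, which makes nicotinic acid mononucleotide from quinolinate, fell by 2.003 ± 0.24 log2, and CST6, the cysteine protease inhibitor cystatin M, by 1.89 ± 0.24 log2. In all 3 the day 7 and untreated libraries did not overlap in either batch.

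With genes already described again left out, the larger falls included genes of adhesion and membrane proteins. EDIL3, a matrix protein that binds integrins, stood at 41.2, 49.1 and 48.3 CPM untreated and 21.9 CPM at day 7 in b1, and at 42.7, 34.6 and 41.8 CPM untreated and 17.4, 18.7, 20.9 and 24.1 CPM at day 7 in b2 (log2 change -0.98 ± 0.11). APOLD1, an apolipoprotein L family member, fell by 0.93 ± 0.11 log2, the testis-enriched chaperone HSPA2 by 0.86 ± 0.11 log2 and the small sulfurtransferase-like gene TSTD1 by 0.85 ± 0.11 log2. SLC44A2, a choline transporter, fell by 0.81 ± 0.10 log2, and like TSTD1 it fell more in b2 (interaction adjusted p = 0.0305 and 0.0256, edgeR). PALM, a plasma membrane protein that shapes filopodia, fell by 0.81 ± 0.12 log2, and LMO7, an actin-binding junction protein, by 0.80 ± 0.10 log2. TENM2, a teneurin of cell adhesion, stood at 94.3, 115 and 94.9 CPM untreated and 31.9 CPM at day 7 in b1, and at 191, 213 and 197 CPM untreated and 139.6, 144, 143 and 126 CPM at day 7 in b2, a larger fall in b1 (interaction adjusted p = 0.000909, edgeR). KIRREL3, an adhesion protein of the immunoglobulin family, fell by 0.80 ± 0.13 log2, and ATF7IP, a partner of the H3K9 methyltransferase SETDB1, by 0.75 ± 0.11 log2.

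**Figure D3:**
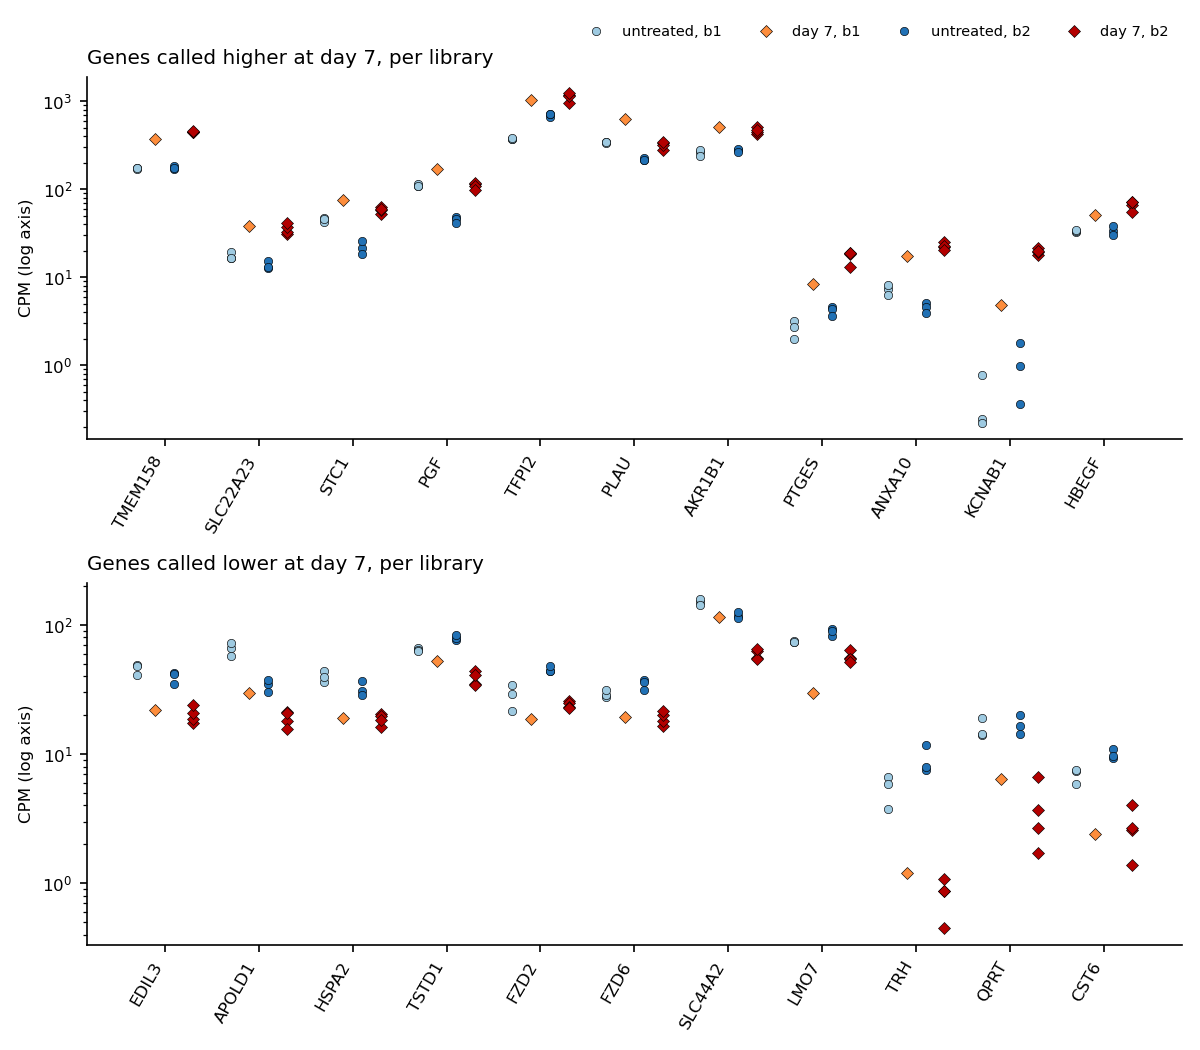
CPM per library on a log axis for 11 genes called higher (top) and 11 called lower (bottom), circles for untreated and diamonds for day 7, light blue and orange for b1, dark blue and red for b2. For each of these genes every day 7 library lies beyond the untreated libraries of its own batch.

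Genes of plasminogen activation and of its inhibition rose within the list of coagulation and fibrinolysis. Urokinase (PLAU) and its receptor (PLAUR) turn plasminogen into plasmin at the cell surface, and SERPINB2 inhibits the activators. PLAU stood at 346, 332 and 344 CPM untreated and 622 CPM at day 7 in b1, and at 212, 224 and 212 CPM untreated and 334, 281, 319 and 344 CPM at day 7 in b2 (log2 change 0.66 ± 0.07, edgeR adjusted p = 8.2e-07). PLAUR rose by 0.60 ± 0.07 log2, SERPINB2, which stood at 3.68, 2.34 and 6.21 CPM untreated and 13.9 CPM at day 7 in b1, and at 1.70, 0.911 and 1.08 CPM untreated and 3.21, 6.63, 5.41 and 4.91 CPM at day 7 in b2, by 1.85 ± 0.28 log2, SERPINB8 by 0.60 ± 0.11 log2 and F2RL1, the protease-activated receptor PAR2, by 0.45 ± 0.10 log2. TFPI2, a Kunitz inhibitor of plasmin and other serine proteases, stood at 374, 372 and 379.6 CPM untreated and 1042 CPM at day 7 in b1, and at 654, 716 and 711 CPM untreated and 1187, 961, 1158 and 1226 CPM at day 7 in b2. It rose more in b1 (interaction adjusted p = 0.00147, edgeR). Over 5 b2 libraries its mean was 1150.0 CPM by library size in the table used here and 369 CPM in the second deposited table. Of the 25 tested members 7 rose (28%, against 8.43% of all tested genes), and all 7 kept the call whichever library was left out. The 4 that fell were GAS6, a ligand of the receptor AXL (log2 change -0.30 ± 0.074), THBS1, PROS1 and TFPI. Of these GAS6 alone kept the call in all 11 such fits, and THBS1 and PROS1 lost it without day 7 b1-13. The list's median log2 change was -0.0063, against -0.02 over all tested genes. Counts for coagulation were 7 to 9 and 2 to 4 with 1 library left out.

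Several of the genes that rose by at least 1.5-fold carry the AP-1 letters TGACTCA, or their reverse complement TGAGTCA, close before their start. Promoters here run from 250 bases before to 50 after the RefSeq start, on GRCh38.p14. They were searched on both strands and found in 8.82% of 170 promoters of genes called higher by at least 1.5-fold, in 4.49% of 847 called higher, in 2.55% of 705 called lower, in 1.61% of 248 called lower by at least 1.5-fold and in 2.89% of 9570 tested genes. The cut at 1.5-fold was chosen after the values were seen. The 15 genes behind the first share include IL11, PLAUR, SERPINB8, S100A2 and MAP2K3, whose matches are printed below with 20 bases on either side, 5′ to 3′ on the gene's strand and with the match in capitals. Of the 15 genes, 10 rose in every fit that left out 1 library, and these 5 are shown as examples of those. The match lies 96 bases before the start of IL11 (chr19:55370533-55370579, minus strand), 186 before that of PLAUR (chr19:43670329-43670375, minus strand), 28 before that of SERPINB8 (chr18:63970033-63970079, plus strand), 52 before that of S100A2 (chr1:153565870-153565916, minus strand) and 41 before that of MAP2K3 (chr17:21284650-21284696, plus strand).
IL11: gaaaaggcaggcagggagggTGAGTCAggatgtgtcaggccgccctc
PLAUR: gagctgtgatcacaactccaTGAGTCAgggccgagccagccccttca
SERPINB8: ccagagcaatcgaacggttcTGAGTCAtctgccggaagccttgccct
S100A2: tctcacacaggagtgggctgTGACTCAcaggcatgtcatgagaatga
MAP2K3: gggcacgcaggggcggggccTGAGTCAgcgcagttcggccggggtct

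Of the other 8 motifs searched on both strands, ETS (CCGGAAGT) was in 9.46% of tested promoters, 10.3% of those called higher and 5.39% of those called lower, and NRF1 (GCGCATGC) in 5.90%, 4.84% and 3.26%. Among changes of at least 1.5-fold ETS was found in 3.53% of the higher and 2.42% of the lower. The E-box CACGTG stood at 10.3%, 12.0% and 9.08% (tested, higher and lower), CRE (TGACGTCA) at 3.46%, 4.25% and 3.26%, the heat shock element GAANNTTC at 4.48%, 5.79% and 4.11% and the hypoxia element TACGTG at 3.43%, 2.36% and 3.40%. The CAAT box (CCAAT) was in 37.0%, 34.9% and 36.6%, and TGATGCAA, a C/EBP and ATF site, in 0.439%, 0.472% and 0.993%. No motif searched contains another. These shares describe letters in this window and say nothing of binding.

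PTGS2, PTGES, PTGES2 and AKR1B1 of prostaglandin synthesis rose. Prostaglandin E2 is made by a cyclooxygenase (PTGS2) and then a terminal synthase (PTGES or PTGES2), and aldo-keto reductase AKR1B1 can make prostaglandin F2 alpha besides reducing glucose. AKR1B1 stood at 264, 276 and 237 CPM untreated and 513 CPM at day 7 in b1, and at 281, 288 and 262 CPM untreated and 510.1, 428, 444 and 469 CPM at day 7 in b2 (log2 change 0.82 ± 0.07, edgeR adjusted p = 4.4e-08). PTGES stood at 3.19, 2.73 and 2.0 CPM untreated and 8.37 CPM at day 7 in b1, and at 4.61, 4.37 and 3.60 CPM untreated and 18.7, 13, 18.3 and 18.7 CPM at day 7 in b2 (log2 change 1.93 ± 0.19). PTGS2 stood at 0.245, 1.95 and 0.444 CPM untreated and 1.59 CPM at day 7 in b1, and at 1.21, 1.46 and 0.720 CPM untreated and 3.74, 4.03, 4.19 and 4.24 CPM at day 7 in b2, so that in b1 the groups overlapped (log2 change 1.61 ± 0.36). PTGES2 rose by 0.29 ± 0.078 log2 over both batches and did not pass in b2 alone. SLCO4A1, an organic anion transporter counted in the list, stood at 23.5, 14 and 20.6 CPM untreated and 25.5 CPM at day 7 in b1, and at 12.1, 10.7 and 12.6 CPM untreated and 30.7, 28.2, 26.2 and 31 CPM at day 7 in b2. Of 27 tested members 7 rose (25.9%), and edgeR, DESeq2 and limma each called 0 lower, with 2 lower at an unadjusted p under 0.05. Of the rises 5 kept the call whichever library was left out, and SLCO3A1 and EPHX1 did not. The median log2 change was 0.047.

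Receptors for bradykinin rose with other G protein-coupled receptors. BDKRB1, the bradykinin receptor induced in inflamed tissue, stood at 78.9, 73.7 and 74.7 CPM untreated and 118 CPM at day 7 in b1, and at 49.5, 53 and 57.3 CPM untreated and 79.9, 78.4, 79.7 and 88.1 CPM at day 7 in b2 (log2 change 0.63 ± 0.077, edgeR adjusted p = 5.5e-06). BDKRB2, the constitutive one, rose by 0.48 ± 0.10 log2. ADORA2B, a low-affinity adenosine receptor, rose by 0.47 ± 0.10 log2, and S1PR3, a receptor of sphingosine 1-phosphate, by 0.37 ± 0.089 log2. RAMP1, a subunit of the CGRP receptor, fell by 0.55 ± 0.11 log2 and OXTR, the oxytocin receptor, by 1.15 ± 0.24 log2 from an untreated range of 5.15 to 10.4 CPM. Of 69 tested members 11 rose (15.9%) and 3 fell (4.35%). Of these, 6 and 2 kept the call whichever library was left out. Counts for these receptors were 9 and 6 on library size alone and 6 to 11 and 2 to 6 with 1 library left out.

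Cytokine signalling outside the chemokines changed in a few members. SOCS3, the feedback inhibitor of gp130 receptors, rose by 0.39 ± 0.092 log2, with day 7 library b2-17 within the untreated b2 range, and SOCS1 by 1.12 ± 0.25 log2. IL4R rose by 0.50 ± 0.12 log2 and STAT5A fell (log2 change -0.94 ± 0.22), though day 7 of b1 lay within the untreated b1 range there. Of 51 tested members 5 rose (9.8%) and 2 fell (3.92%), against 8.43% and 7.28% of all tested genes. All 5 rises kept the call whichever library was left out. Counts for cytokine signalling were 7 and 3 with the length trend removed, 5 and 5 on library size alone, and 5 to 9 and 1 to 4 with 1 library left out. In the TNF superfamily TNFRSF10D, a decoy receptor of TRAIL, stood at 68.6, 70.9 and 77.2 CPM untreated and 120.3 CPM at day 7 in b1, and at 50.5, 50.5 and 55.8 CPM untreated and 83.7, 91.6, 76.8 and 87.7 CPM at day 7 in b2 (log2 change 0.71 ± 0.079). TNFRSF12A, the TWEAK receptor, rose by 0.39 ± 0.063 log2 while its ligand TNFSF12 fell by 0.43 ± 0.093 log2. There 5 of 36 rose and 2 fell. Counts for the TNF superfamily were 3 and 3 on library size alone and 2 to 6 and 1 to 2 with 1 library left out.

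Ligands and regulators of the EGF receptor were among the rises. HBEGF, heparin-binding EGF-like growth factor, stood at 32.3, 33.1 and 33.9 CPM untreated and 50.2 CPM at day 7 in b1, and at 33.3, 38.6 and 30.3 CPM untreated and 66, 55.6, 72.1 and 71.8 CPM at day 7 in b2 (log2 change 0.86 ± 0.10, edgeR adjusted p = 4.2e-06). LRIG1, which lowers EGF receptor levels, rose by 0.39 ± 0.094 log2, and RHBDF2, iRhom2, which brings the sheddase ADAM17 to the cell surface, by 0.45 ± 0.11 log2. Of 17 tested members 5 rose (29.4%), and edgeR, DESeq2 and limma called 0, 0 and 1 lower, with 3 lower at an unadjusted p under 0.05. ERRFI1 and TGFA, the other 2 rises, each lost the call without at least 1 library. ERRFI1 was higher in b2 (0.85 log2) and lower in b1 (-0.26 log2). EGFR, the receptor itself, was called higher in b2 alone (0.64 log2) and was lower in b1 (-0.82 log2). Counts for EGF receptor genes were 3 and 1 on library size alone and 3 to 6 and 0 to 1 with 1 library left out. Among the other growth factors PTN, pleiotrophin, fell by 0.70 ± 0.13 log2. AXL, the receptor of GAS6, fell by 0.25 ± 0.065 log2. In that list of 38 tested genes 4 rose and 5 fell. Counts for these growth factors were 3 and 9 on library size alone and 2 to 6 and 5 to 7 with 1 library left out. Of 19 genes in the insulin-like growth factor list 4 rose, STC1 and GRB10, an adaptor that restrains insulin and IGF1 receptors (log2 change 0.30 ± 0.076), among them, and 1 fell. Counts for this IGF list were 2 and 1 on library size alone and 2 to 4 and 0 to 1 with 1 library left out.

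Genes of the WNT pathway moved in both directions, ligands, receptors and nuclear factors alike. FZD2 stood at 21.6, 29.2 and 34.4 CPM untreated and 18.7 CPM at day 7 in b1, and at 43.7, 44.1 and 47.9 CPM untreated and 25.7, 25.1, 23.2 and 22.8 CPM at day 7 in b2 (log2 change -0.84 ± 0.12, edgeR adjusted p = 3.4e-05). FZD6 fell by 0.78 ± 0.11 log2. FZD8 was called higher, but not in every fit that left out a library. WNT7B, a WNT ligand, rose by 0.65 ± 0.12 log2, PORCN, the acyltransferase that attaches a lipid to WNT ligands, by 0.60 ± 0.13 log2, TCF7, a transcription factor of the pathway, by 0.58 ± 0.11 log2 and the corepressor TLE1 by 0.39 ± 0.10 log2. The ligand WNT5A, the TLE family member TLE5, DKK3 and the kinase CSNK1A1 were called lower, and each lost the call without at least 1 library. Of 40 tested members 8 rose (20%) and 6 fell (15%), and 4 and 2 kept the call whichever library was left out. Counts for the WNT pathway were 9 and 4 with the length trend removed, 5 and 8 on library size alone, and 5 to 10 and 3 to 6 with 1 library left out. Few axon guidance genes were called: SEMA7A, a membrane-anchored semaphorin, rose by 0.44 ± 0.067 log2 and EFNB3 by 0.56 ± 0.14 log2, ROBO3 fell by 0.38 ± 0.10 log2, and 4 of 46 rose and 2 fell. Counts for axon guidance were 7 and 1 with the length trend removed, 3 and 4 on library size alone, and 3 to 8 and 2 to 3 with 1 library left out. In the NOTCH list 2 of 32 rose, and edgeR, DESeq2 and limma each called 0 lower, with 2 lower at an unadjusted p under 0.05. Counts for NOTCH genes were 1 and 0 with the length trend removed, 1 and 1 on library size alone, and 1 to 2 and 0 to 2 with 1 library left out.

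Some genes that handle retinoids rose. RDH10, which oxidizes retinol, and the serum carrier RBP4 rose. ALDH1A3, which makes retinoic acid, was higher at day 7 in b2 and lower in b1. RDH10 stood at 9.80, 10.9 and 10.9 CPM untreated and 17.5 CPM at day 7 in b1, and at 10.7, 11.7 and 14 CPM untreated and 25.7, 23, 29.5 and 25.4 CPM at day 7 in b2 (log2 change 1.02 ± 0.13, edgeR adjusted p = 1.4e-05). ALDH1A3 stood at 35, 37 and 39.9 CPM untreated and 31.9 CPM at day 7 in b1, and at 53.6, 44.1 and 56.5 CPM untreated and 113, 107, 111 and 116 CPM at day 7 in b2 (interaction adjusted p = 0.000222, edgeR). Its overall log2 change of 0.83 ± 0.19 thus averages opposite directions. RBP4 stood at 10.5, 16 and 11.8 CPM untreated and 19.5 CPM at day 7 in b1, and at 0.971, 1.28 and 1.44 CPM untreated and 2.67, 2.30, 2.79 and 2.45 CPM at day 7 in b2 (log2 change 0.80 ± 0.22). Beside these, the list of KLF, SP and nuclear receptor genes held the corepressor NRIP1 (log2 change 1.55 ± 0.30) among its rises. Of 60 tested members 11 rose (18.3%) and 1 fell, and 5 of the rises kept the call whichever library was left out. Counts for that list were 8 and 5 on library size alone and 8 to 12 and 1 to 3 with 1 library left out.

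In a list of homeobox, SOX, FOX, ETS, SNAI, GATA and related transcription factors more members were called higher than lower. SNAI2, a zinc finger repressor of cadherins, stood at 10.5, 10.1 and 12.6 CPM untreated and 14.7 CPM at day 7 in b1, and at 9.47, 11.5 and 9.36 CPM untreated and 21.4, 22.5, 20.6 and 24.8 CPM at day 7 in b2 (log2 change 0.93 ± 0.15, edgeR adjusted p = 0.000181). Its relative SNAI1 rose by 0.69 ± 0.13 log2 and TWIST2, which did not pass in b2 alone, by 0.36 ± 0.088 log2, whereas TWIST1 fell by 0.44 ± 0.09 log2. FOXD1, a forkhead factor, rose by 0.43 ± 0.072 log2, RUNX3 by 0.99 ± 0.20 log2, TBX3 by 0.56 ± 0.13 log2 and GATA6 by 0.52 ± 0.14 log2. GATA3 fell by 0.60 ± 0.11 log2, and PAX6, TFAP2A, FOXM1 and FOXN3 were also called lower. DLX2, a homeobox factor, stood at 23, 19.5 and 19.3 CPM untreated and 20.7 CPM at day 7 in b1, and at 10.9, 11.7 and 10.4 CPM untreated and 25.4, 21.9, 22 and 20.1 CPM at day 7 in b2. Only in b2 were its groups apart (interaction adjusted p = 0.0446, edgeR). Of 98 tested members 17 rose (17.3%) and 6 fell (6.12%), of which 11 and 3 kept the call whichever library was left out. The median log2 change was 0.055. Counts for these transcription factors were 13 and 10 on library size alone and 14 to 18 and 3 to 6 with 1 library left out.

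Cell junction genes were called lower more often than higher, though less so with the length trend removed. CLDN11, a claudin of tight junctions, stood at 109, 114 and 119.5 CPM untreated and 86.9 CPM at day 7 in b1, and at 92.5, 88.5 and 79.2 CPM untreated and 49.996, 59.1, 68 and 62.7 CPM at day 7 in b2 (log2 change -0.49 ± 0.086, edgeR adjusted p = 0.000443). TJP1, the scaffold ZO-1, fell by 0.47 ± 0.11 log2, CLDN7 by 1.45 ± 0.26 log2 from an untreated range of 3.51 to 6.84 CPM, the giant cadherin FAT1 by 0.33 ± 0.081 log2 and CDH4, R-cadherin, by 0.30 ± 0.077 log2. FAT1, which also did not pass in b2 alone, and CDH4 did not pass with the length trend removed. CDH24 rose by 0.66 ± 0.12 log2 and CD276, an immune checkpoint protein counted in the list, by 0.46 ± 0.08 log2. Of 48 tested members 9 fell (18.8%, against 7.28% of all tested genes) and 4 rose (8.33%), with a median of -0.14. The members were long, at a median of 4516 nt against 3419 nt over all genes. Counts for cell junctions were 4 and 5 with the length trend removed, 2 and 14 on library size alone, and 2 to 4 and 7 to 12 with 1 library left out. Genes for heparan sulfate and other glycosaminoglycans rose in 7 of 48 (14.6%), among them GFPT2, which makes their amino sugar precursor (log2 change 0.54 ± 0.071), SDC1, syndecan-1 (log2 change 0.28 ± 0.066), and the sulfotransferase UST (log2 change 0.54 ± 0.13), and 1 fell. Counts for glycosaminoglycan genes were 5 and 2 on library size alone and 5 to 8 and 0 to 3 with 1 library left out.

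Cytoskeletal and nuclear envelope genes split by family member. TUBA1C, an alpha tubulin, stood at 638, 606 and 628 CPM untreated and 952 CPM at day 7 in b1, and at 976, 1061 and 1124 CPM untreated and 1406, 1355, 1339.8 and 1419 CPM at day 7 in b2 (log2 change 0.46 ± 0.062), while the beta tubulins TUBB2B and TUBB2A fell by 0.58 ± 0.12 log2 and 0.28 ± 0.065 log2. Within the alpha or the beta family tubulin genes are much alike in coding sequence, so counts may be split among members of a family. The counts here are of 3′ ends, and whether they were split was not tested. MAP4, a microtubule-associated protein, fell by 0.24 ± 0.06 log2 and did not pass in b2 alone or with the length trend removed. Of 80 members of the microtubule list 7 rose and 10 fell (12.5%). DIAPH3, a formin, fell by 0.65 ± 0.093 log2, and the scaffold IQGAP3 fell by 0.82 ± 0.17 log2.

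At the nuclear envelope LMNA, lamin A and C, rose by 0.31 ± 0.066 log2 and LMNB1, lamin B1, fell by 0.37 ± 0.085 log2. LMNB1 stood at 71.8, 76.8 and 75 CPM untreated and 60.6 CPM at day 7 in b1, and at 96.4, 120.1 and 109.8 CPM untreated and 71.7, 91.6, 88.1 and 79.4 CPM at day 7 in b2, with no overlap. SYNE2 and SUN1, which link the lamina to the cytoskeleton, fell by 0.63 ± 0.12 log2 and 0.32 ± 0.076 log2, and the pore protein NUP210 by 0.62 ± 0.17 log2. IPO4, an importin, and NXF1 and NXT1, which export messenger RNA, rose by 0.53 ± 0.082 log2, 0.46 ± 0.082 log2 and 0.36 ± 0.085 log2. Of 86 tested members 6 rose (6.98%) and 9 fell (10.5%). Counts for the nuclear envelope were 7 and 6 with the length trend removed, 4 and 13 on library size alone, and 5 to 10 and 5 to 9 with 1 library left out. The falling LMNB2, SUN2 and SYNE1 each lost the call without at least 1 library.

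Several S100 genes of chromosome 1 rose. S100A6, a calcium-binding protein, stood at 1379, 1303 and 1309 CPM untreated and 1701 CPM at day 7 in b1, and at 1299, 1287 and 1202 CPM untreated and 2098, 1815, 1653 and 1895 CPM at day 7 in b2 (log2 change 0.50 ± 0.068, edgeR adjusted p = 2.3e-05). S100A16 rose by 0.46 ± 0.059 log2 and S100A2 by 0.77 ± 0.14 log2. S100A3, S100A2, S100A16 and S100A13 are 4 neighbouring tested genes, all called higher, at chromosome 1, 153547329 to 153634361 (GRCh38.p14). S100A3 and S100A13 lost the call without at least 1 library, S100A13 without day 7 b1-13. ANXA3 and RCN3, an annexin and a calcium-binding protein of the secretory pathway, fell by 0.88 ± 0.14 log2 and 1.12 ± 0.20 log2. Of 38 tested members of this list 6 rose and 6 fell. Counts for S100 proteins and annexins were 4 and 7 with the length trend removed, 4 and 8 on library size alone, and 5 to 7 and 3 to 6 with 1 library left out. Over the genome 24 runs of at least 3 neighbouring tested genes were called in 1 direction, 15 higher and 9 lower, the longest the 8 genes from AFP to MTHFD2L on chromosome 4, which include the CXCL chemokines. Median log2 changes per chromosome lay between -0.066 (chromosome X) and 0.027 (chromosome 21).

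Proteasome genes rose by small amounts. UFD1, which delivers ubiquitylated proteins to the p97 ATPase, stood at 193, 186 and 188 CPM untreated and 259 CPM at day 7 in b1, and at 192, 177 and 193 CPM untreated and 283, 267, 249.7 and 277 CPM at day 7 in b2 (log2 change 0.50 ± 0.064, edgeR adjusted p = 8.6e-06). PSMD13, of the regulatory particle, stood at 150.5, 151 and 129 CPM untreated and 209 CPM at day 7 in b1, and at 106, 121 and 103 CPM untreated and 192, 154, 155 and 159.9 CPM at day 7 in b2 (log2 change 0.57 ± 0.079). PSMA7, of the core particle, rose by 0.39 ± 0.063 log2 and PSMC5, an ATPase of its cap, by 0.34 ± 0.068 log2, PSMD4, a ubiquitin receptor, by 0.30 ± 0.062 log2 and the core subunit PSMB4 by 0.28 ± 0.058 log2. Of 58 tested members 16 rose (27.6%, against 8.43% of all tested genes), and edgeR, DESeq2 and limma each called 0 lower, with 1 lower at an unadjusted p under 0.05. The median log2 change was 0.15, and 10 of the 16 kept the call whichever library was left out. The members are short, at a median of 1716 nt, and 14 rose and 1 fell with the length trend removed. Counts for the proteasome were 9 and 2 on library size alone and 11 to 18 and 0 to 2 with 1 library left out. Of 223 ubiquitin ligases and deubiquitinases 11 rose and 14 fell. Counts for ubiquitin enzymes were 16 and 7 with the length trend removed, 6 and 27 on library size alone, and 6 to 13 and 8 to 12 with 1 library left out.

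**Figure D4:**
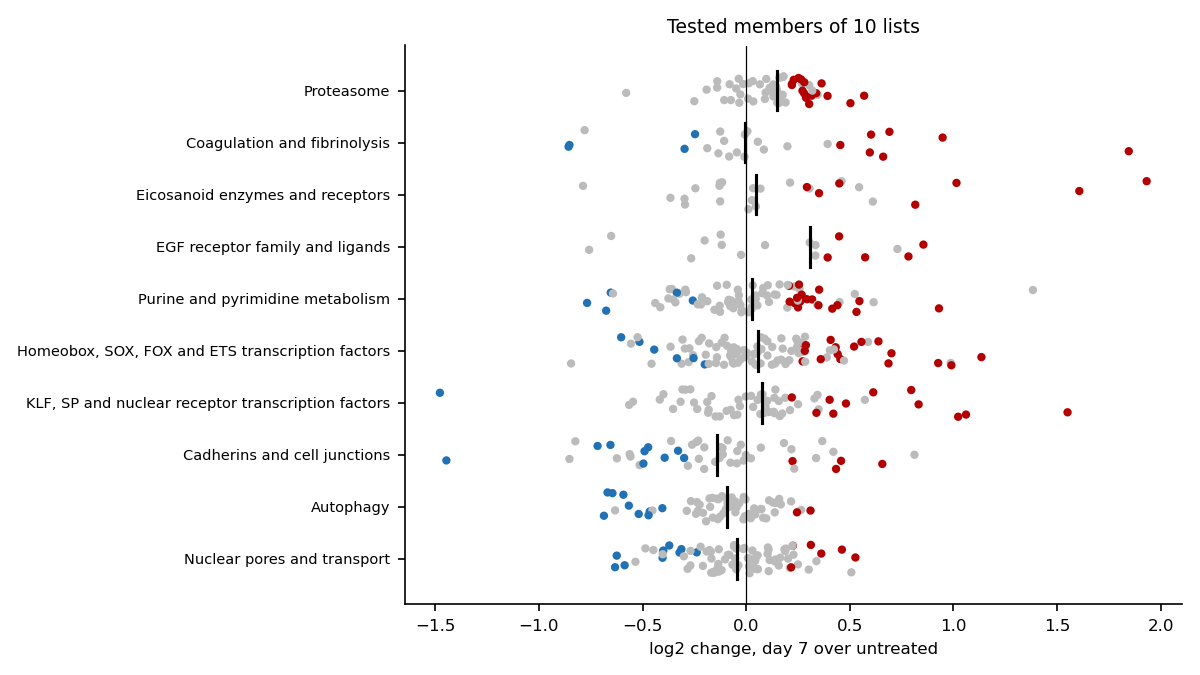
Log2 change at day 7 of every tested member of 10 lists (x), with called members in red (higher) or blue (lower), the others in grey and a bar at the list's median. Proteasome members lie mostly to the right of 0 with a median of 0.15, and junction members mostly to the left with a median of -0.14.

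Several autophagy receptors fell. OPTN, optineurin, an adaptor for damaged mitochondria and bacteria, stood at 157, 157 and 165 CPM untreated and 131 CPM at day 7 in b1, and at 201, 205 and 203 CPM untreated and 167, 133, 144 and 151 CPM at day 7 in b2 (log2 change -0.40 ± 0.071, edgeR adjusted p = 0.000423). Over 5 b2 libraries OPTN had a mean of 175 CPM by library size in the table used here and 17.3 CPM in the second deposited table. TECPR1, which helps autophagosomes fuse with lysosomes, fell by 0.65 ± 0.10 log2, and the receptors CALCOCO2, NDP52, and CALCOCO1 by 0.69 ± 0.13 log2 and 0.57 ± 0.12 log2. SQSTM1, p62, rose by 0.25 ± 0.06 log2. Of 61 tested members 9 fell (14.8%) and 2 rose, and 6 of the falls kept the call whichever library was left out. Counts for autophagy were 1 and 15 on library size alone and 1 to 2 and 7 to 11 with 1 library left out. In the lysosome list 10 of 81 rose and 6 fell: ATP6V0B, of the proton pump, rose by 0.62 ± 0.072 log2, CLN6 by 0.51 ± 0.089 log2 and ATP6V0D1 by 0.35 ± 0.077 log2, and GRN, progranulin, fell by 0.32 ± 0.065 log2. Counts for the lysosome were 8 and 11 on library size alone and 9 to 11 and 2 to 8 with 1 library left out.

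Genes of purine and pyrimidine metabolism were among the rises, of salvage as of new synthesis. PNP, purine nucleoside phosphorylase, stood at 92.6, 71.7 and 67 CPM untreated and 118 CPM at day 7 in b1, and at 49, 47.9 and 39.97 CPM untreated and 126, 74, 88.8 and 99.7 CPM at day 7 in b2 (log2 change 0.93 ± 0.15, edgeR adjusted p = 0.00102). UPP1, uridine phosphorylase, rose by 0.55 ± 0.087 log2, APRT, which salvages adenine, by 0.42 ± 0.095 log2, and the nucleoside transporter SLC29A1 by 0.53 ± 0.11 log2. NT5E, the ecto-enzyme CD73 that makes adenosine, stood at 64.9, 76.4 and 82.9 CPM untreated and 73.3 CPM at day 7 in b1, and at 91.5, 79.98 and 65.9 CPM untreated and 121, 119, 117 and 127 CPM at day 7 in b2. The groups overlapped in b1 (log2 change 0.44 ± 0.11). UMPS, ADSL, PAICS, CTPS1 and IMPDH1, of new synthesis, were also called higher. DPYD, which degrades pyrimidines, fell by 0.77 ± 0.17 log2. TK1, which salvages thymidine, NT5M, PRPS2 and CAD were also called lower. Of 81 tested members 17 rose (21%) and 5 fell (6.17%), 9 and 3 of them whichever library was left out. Counts for purines and pyrimidines were 9 and 7 on library size alone and 10 to 17 and 3 to 7 with 1 library left out.

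Other metabolic lists held scattered changes. Of 64 genes of zinc, copper and iron handling 12 rose (18.8%) and 3 fell, the rises with EPAS1, the hypoxia-inducible factor HIF-2 alpha (log2 change 0.70 ± 0.086), and STEAP3, a ferrireductase (log2 change 0.78 ± 0.14). Just 4 of the rises kept the call whichever library was left out. Counts for metal handling were 10 and 5 with the length trend removed, 6 and 7 on library size alone, and 7 to 12 and 2 to 7 with 1 library left out. Of 58 glutathione and aldehyde genes 7 rose, such as MGST1, a microsomal transferase (log2 change 0.71 ± 0.10), and GSTZ1 (log2 change 0.62 ± 0.10), and 7 fell, such as ALDH6A1, of valine degradation (log2 change -0.84 ± 0.14). Counts for glutathione and aldehyde genes were 5 and 13 on library size alone and 5 to 7 and 4 to 10 with 1 library left out. In lipid metabolism SPHK1, which makes sphingosine 1-phosphate, stood at 141, 138 and 118 CPM untreated and 197 CPM at day 7 in b1, and at 95.2, 97.8 and 109 CPM untreated and 154, 154, 134 and 149.7 CPM at day 7 in b2 (log2 change 0.56 ± 0.075). DEGS1, CERS2 and UGCG, of ceramide and glucosylceramide synthesis, rose by 0.29 ± 0.065 log2, 0.29 ± 0.068 log2 and 0.47 ± 0.11 log2, and 9 of 86 genes of that list rose and 5 fell. Counts for sphingolipids and phospholipids were 7 to 11 and 3 to 6 with 1 library left out. LRP1, a large endocytic receptor, fell by 0.64 ± 0.08 log2. ACOX2, a peroxisomal oxidase, rose by 1.17 ± 0.19 log2 and UCP2, an uncoupling protein, fell by 0.37 ± 0.083 log2, in a list where 3 of 85 rose and 7 fell. Counts for peroxisomes and fatty acids were 2 and 10 on library size alone and 3 to 4 and 4 to 7 with 1 library left out. Glucose transporter SLC2A3 fell by 0.74 ± 0.11 log2. Of 106 genes of mitochondrial import and dynamics 14 rose (13.2%) and 2 fell, though just 5 of the rises kept the call whichever library was left out, FASTKD5 (log2 change 0.58 ± 0.13) among them. Counts for mitochondrial import were 10 and 1 with the length trend removed, 8 and 5 on library size alone, and 10 to 16 and 0 to 2 with 1 library left out.

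Transport and kinase lists added a few larger changes. CA9, the carbonic anhydrase of the cell surface, stood at 89, 73.7 and 74.1 CPM untreated and 21.9 CPM at day 7 in b1, and at 23.8, 21.7 and 19.4 CPM untreated and 8.56, 10.1, 12.4 and 8.70 CPM at day 7 in b2 (log2 change -1.35 ± 0.14, edgeR adjusted p = 9.1e-07). In both batches the day 7 libraries lay below the untreated ones. In that list of bicarbonate, lactate and proton transport 9 of 55 rose and 5 fell, 3 and 2 of them whichever library was left out. Counts for bicarbonate and lactate transport were 4 and 7 on library size alone and 5 to 10 and 2 to 6 with 1 library left out. VEGFA, the main vascular growth factor, stood at 88.5, 96.3 and 104 CPM untreated and 151 CPM at day 7 in b1, and at 81.6, 84.9 and 88.6 CPM untreated and 155, 151, 123 and 154 CPM at day 7 in b2 (log2 change 0.74 ± 0.081). TRIB1, a pseudokinase that directs substrates to the ligase COP1, rose by 1.09 ± 0.18 log2, and EIF4EBP2, an inhibitor of cap-dependent translation, by 0.47 ± 0.11 log2. In the mTOR and PI3K list 4 of 68 rose and 5 fell. Counts for mTOR and PI3K were 7 and 2 with the length trend removed, 2 and 8 on library size alone, and 2 to 6 and 2 to 6 with 1 library left out. GPAT3, an acyltransferase of triglyceride synthesis, rose by 1.25 ± 0.24 log2, though within the untreated range in b1, with 3 of 60 genes of lipid droplets and lipoproteins higher and 5 lower. Counts for lipid droplets were 2 and 8 on library size alone and 2 to 4 and 4 to 7 with 1 library left out. PLPP3, a lipid phosphate phosphatase, rose by 0.85 ± 0.19 log2. Of 101 genes of 3′ end processing and poly(A) tails 6 rose and 4 fell. Counts for 3′ end processing were 4 and 11 on library size alone and 4 to 9 and 2 to 5 with 1 library left out. Of 25 clock genes 1 rose and 1 fell. Counts for the clock were 0 to 2 and 1 with 1 library left out. Of 26 selenoprotein genes edgeR, DESeq2 and limma called 0, 1 and 0 higher and edgeR 1 lower, with 3 higher at an unadjusted p under 0.05. Counts for selenoproteins were 2 and 1 with the length trend removed, 0 and 3 on library size alone, and 0 to 1 and 0 to 3 with 1 library left out.

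Ion channel genes rose in 10 of 64 (15.6%) and fell in 3. KCNMA1, the large-conductance calcium-activated potassium channel, stood at 172, 138 and 151 CPM untreated and 204 CPM at day 7 in b1, and at 169.7, 160.0 and 166 CPM untreated and 300.0, 258, 248 and 249 CPM at day 7 in b2 (log2 change 0.60 ± 0.079, edgeR adjusted p = 1.4e-05). P2RX5, an ATP-gated channel, rose by 0.98 ± 0.18 log2, CLIC1 by 0.43 ± 0.077 log2 and LRRC8A, of the volume-regulated anion channel, by 0.36 ± 0.075 log2. Counts for ion channels were 9 and 2 with the length trend removed, 8 and 7 on library size alone, and 8 to 11 and 2 to 5 with 1 library left out. PDE1C, a phosphodiesterase activated by calmodulin, fell by 1.60 ± 0.20 log2, with 8.93 to 16.4 CPM in untreated and 2.79 to 4.24 CPM in day 7 libraries, in a cyclic nucleotide list where 2 of 39 rose and 4 fell. Counts for cyclic nucleotide genes were 4 and 4 with the length trend removed, 1 and 6 on library size alone, and 0 to 3 and 1 to 5 with 1 library left out.

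Genes of RNA processing, translation and vesicle traffic held few large changes. SYNCRIP and HNRNPM, RNA-binding proteins, rose by 0.36 ± 0.071 log2 and 0.25 ± 0.06 log2, and 10 of 120 spliceosome genes rose and 1 fell. Counts for the spliceosome were 4 and 6 on library size alone and 8 to 16 and 1 to 3 with 1 library left out. EIF3K rose by 0.31 ± 0.069 log2, while PDCD4, an inhibitor of the helicase EIF4A, fell by 0.64 ± 0.10 log2 and EIF2AK2, the kinase PKR, by 0.70 ± 0.13 log2. Of 67 translation factors 9 rose (13.4%) and 4 fell. Counts for translation factors were 6 and 5 on library size alone and 6 to 13 and 3 to 5 with 1 library left out. XRN1, the main cytosolic 5′ to 3′ exonuclease, fell by 0.60 ± 0.12 log2. STX1A, a syntaxin of exocytosis, stood at 41.9, 41.7 and 37.7 CPM untreated and 70.5 CPM at day 7 in b1, and at 23.3, 28.1 and 24.5 CPM untreated and 48.1, 57.3, 45.5 and 47.1 CPM at day 7 in b2 (log2 change 0.90 ± 0.10), in a list where 12 of 120 rose and 6 fell. Counts for endosomes and exocytosis were 10 and 15 on library size alone and 8 to 14 and 2 to 6 with 1 library left out. TRAPPC9, of a tethering complex of the Golgi, fell by 1.19 ± 0.15 log2, with 16.2 to 19.7 CPM in untreated and 5.98 to 9.36 CPM in day 7 libraries. ARF1 rose by 0.31 ± 0.059 log2, and of 96 genes of ER to Golgi transport 5 rose and 5 fell. Counts for ER to Golgi transport were 8 and 4 with the length trend removed, 2 and 11 on library size alone, and 2 to 6 and 3 to 7 with 1 library left out.

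In the G1 list cyclins, CDKs and CDK inhibitors were each called in both directions. CCND1 and CCND3 rose by 0.30 ± 0.072 log2 and 0.34 ± 0.075 log2, and the inhibitors CDKN1B, p27, and CDKN2C, p18, fell by 0.42 ± 0.10 log2 and 0.35 ± 0.077 log2. E2F7, an E2F repressor, fell by 0.62 ± 0.16 log2. CDKN1B stood at 29.7, 35.1 and 35.3 CPM untreated and 27.9 CPM at day 7 in b1, and at 36.7, 35.9 and 41.4 CPM untreated and 27, 29.7, 25.8 and 26.5 CPM at day 7 in b2. Of 70 tested members 7 rose (10%) and 9 fell (12.9%), against 8.43% and 7.28% of all tested genes. Of these members 5 and 6 kept the call whichever library was left out. Counts for the G1 list were 5 and 14 on library size alone and 5 to 8 and 6 to 11 with 1 library left out. Another inhibitor, CDKN1A, p21, rose by 0.33 ± 0.07 log2, with the smallest p among the list's rises. CDK4 was also called higher, and CDK2, CDK18 and the cyclin CCNT1 were called lower.

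**Figure D5:**
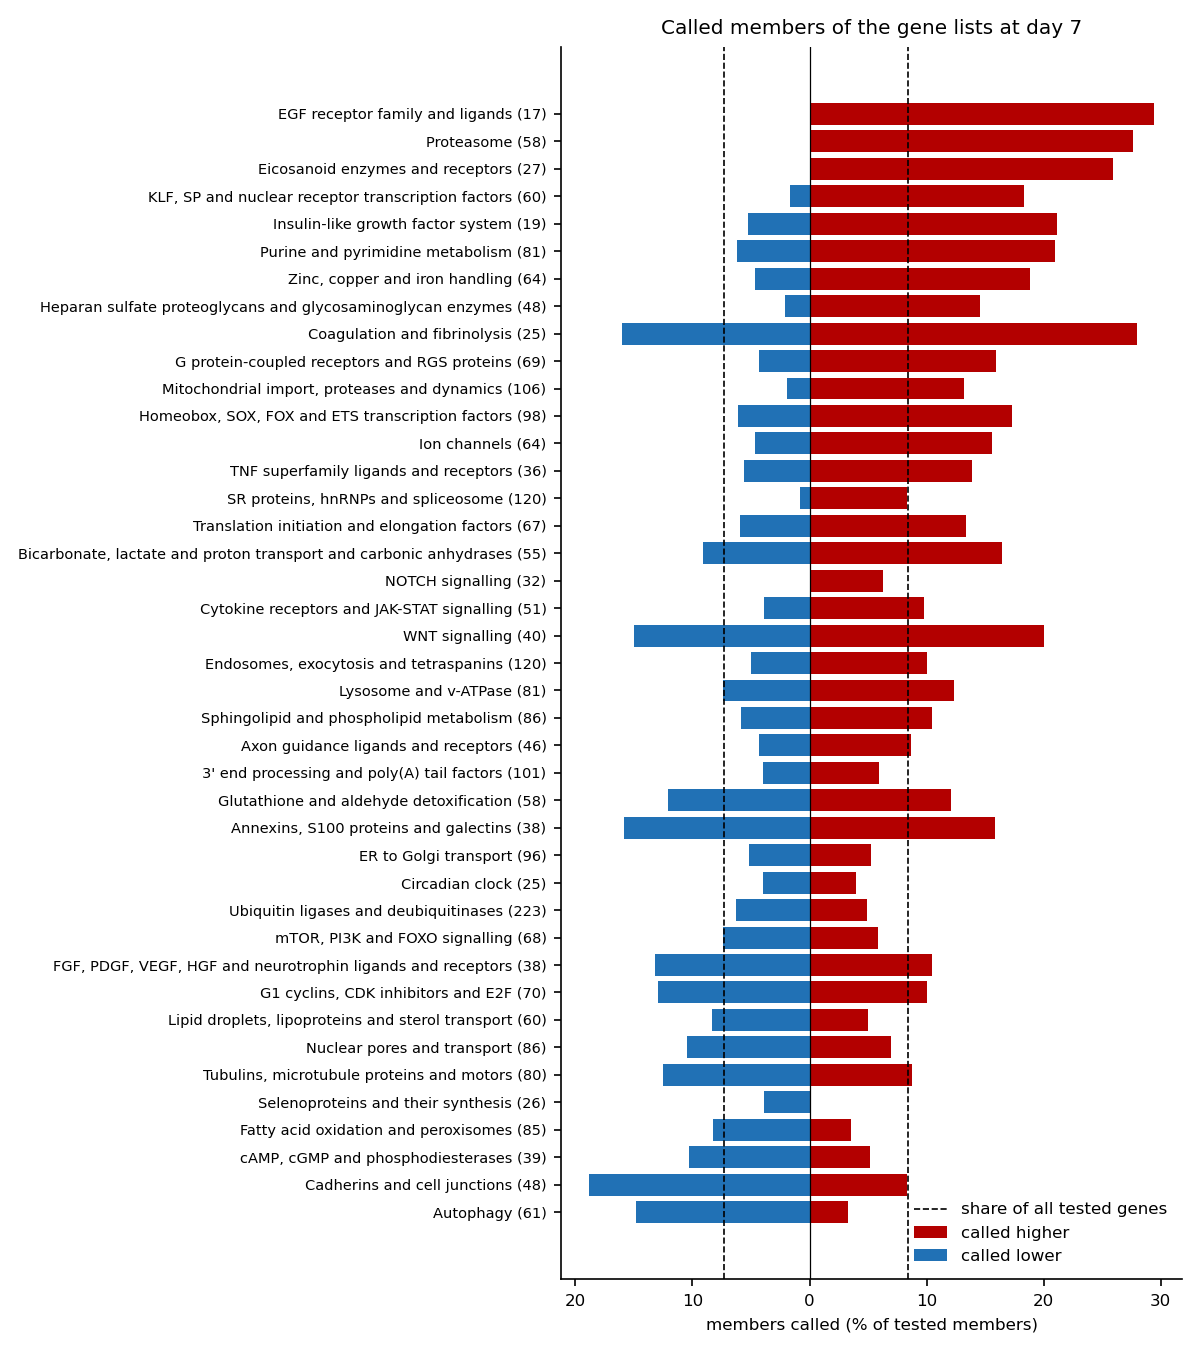
Share of tested members called higher (red, right) or lower (blue, left) at day 7 in the gene lists, with the number tested in brackets and the shares over all tested genes as dashed lines. EGF receptor, coagulation, proteasome and eicosanoid genes reach furthest to the right, and junction genes furthest to the left.

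The day 7 change of some genes differed between the batches. The interaction was called for 329 of 12449 genes (2.64%, edgeR), and 220 of them had opposite signs, 94 higher in b1 and lower in b2 and 126 the reverse. Since b1 has 1 day 7 library, a batch difference cannot be told apart from that library. CEBPD, a transcription factor of acute inflammation, stood at 58.3, 56.1 and 54.6 CPM in untreated b1 and 142 CPM at day 7 of b1, and in b2 at 122, 132 and 150.2 CPM untreated and 102, 86.1, 92.3 and 87.4 CPM at day 7 (interaction adjusted p = 3.1e-08, edgeR). DKK1, a secreted WNT antagonist, did the opposite, with log2 changes of -0.48 in b1 and 1.09 in b2, as did the phosphate transporter SLC20A1 (-0.54 and 1.02). Of the 329, 74 were also called over both batches. The count of batch differences was 684 without day 7 library b2-17, 197 without untreated b1-2, 204 without b1-3 and 207 without b2-2 (untreated).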

How the data were processed

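Bulk MARS-seq libraries of immortalized human astrocytes were compared, 5 at day 7 of doxycycline with 6 untreated. The authors deposited UMI counts per gene and library, with their own log2 fold changes and adjusted p-values, which are named as theirs where used. The submitters' processing notes name bcl2fastq, cutadapt, STAR 2.4.2a, HTSeq, DESeq2 and the build hg38. Annotation and parameters are not given in the sources used here. Of the deposited tables, 61 columns of other per-sample values were not used. The second table was read only for 5 libraries found in both (log2 differences of CPM, and mean CPM by library size).

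Depth per library was 2573290 to 5567651 UMIs. Samples were grouped by their titles. Counts were tested with edgeR 4.0.16 (robust quasi-likelihood, filterByExpr, TMM) with a batch term, for the interaction with batch, and within b2, each with Benjamini-Hochberg adjustment over all tested genes at 0.05. CPM are scaled by TMM, and log2 changes within b1 are of mean CPM with 0.5 added. Transcript lengths came from GENCODE v29, and positions, symbols and promoter sequence from RefSeq on GRCh38.p14. Simulated counts for 12449 genes were used to test the fit: of 100 genes changed 1.5-fold 55% were recovered and of 100 changed 2-fold 83%, with 12 false calls, but for the interaction 4% and 27%, with 1 false call. Far fewer genes were changed there than were called in the data, and the simulated libraries had no length trend. These rates may therefore not hold for the data.

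The named genes follow a rule: the 15 largest rises and 15 largest falls at a mean of at least 20 CPM, the 5 largest each way at 2 to 20 CPM, up to 2 rises and 2 falls per list, 6 batch differences and IDH1. For the largest rises and falls every day 7 library had to lie on the same side of its batch's untreated mean. Chemokines, collagens, the amino acid response and genes already described, 226 in all, were left out of the largest changes and the picks per list. They still count in the shares of lists and motifs, so CXCL8, CSF1R and ISG20 are among the 15 AP-1 genes. A few genes that meet the rule, and 1 list, are not reported here. Further list members, CA9 among them, were chosen after their values were seen, from those called in every fit that left out a library. The members and the 42 lists were chosen with earlier results of these data known. Alternatives were DESeq2 1.42.0, limma 3.58.1, other scaling, filters, no batch term and leaving out each library. Removing the length trend was added after the data were seen.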

Additional observations from a re-analysis of the deposited data

Results flagged for a closer look

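The day 7 change of 16 of the genes given above differed between b1 and b2 by edgeR's interaction test. The differences are in log2, b1 minus b2, with the change in b1 and in b2 in brackets. The difference comes from the interaction fit and the b2 change from the fit of b2 alone. The b1 change is of mean CPM with 0.5 added, so the bracketed values need not subtract to the difference. The change was larger in b1 for C1QTNF1 by 0.88 (1.60 and 0.77, adjusted p = 0.009), IL11 by 0.85 (1.57 and 0.74, adjusted p = 0.00268), IL6 by 1.15 (1.79 and 0.66, adjusted p = 1.7e-05) and CSF3 by 2.54 (3.99 and 1.96, adjusted p = 0.00365). The same was seen for C3 by 1.60 (3.17 and 1.77, adjusted p = 0.0139), TENM2 by -1.12 (-1.65 and -0.52, adjusted p = 0.000909) and TFPI2 by 0.76 (1.47 and 0.73, adjusted p = 0.00147). It was larger in b2 for PGF by -0.67 (0.60 and 1.30, adjusted p = 0.018), INA by -1.08 (0.31 and 1.42, adjusted p = 0.0349) and TSTD1 by 0.76 (-0.29 and -1.03, adjusted p = 0.0256), and also for SLC44A2 by 0.61 (-0.39 and -0.98, adjusted p = 0.0305) and DLX2 by -0.999 (0.008 and 1.02, adjusted p = 0.0446). The signs were opposite for ALDH1A3 by -1.37 (-0.22 and 1.15, adjusted p = 0.000222), CEBPD by 1.88 (1.32 and -0.53, adjusted p = 3.1e-08), DKK1 by -1.57 (-0.48 and 1.09, adjusted p = 1.0e-05) and SLC20A1 by -1.53 (-0.54 and 1.02, adjusted p = 2.2e-06). The b1 side of each rests on 1 day 7 library, and whether that library or the batch sets them was not tested.

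Among the 4 day 7 libraries of b2, 1 library stood apart from the other 3 for 11 of 176 genes by Dixon's test, where chance gives about 1 in 20. In b2-17 ROBO3 stood at 35.8 CPM (the nearest other at 44.1), PSMD13 stood at 192 CPM (the nearest other at 159.9) and STEAP3 stood at 29.7 CPM (the nearest other at 20.1). In b2-18 KIRREL3 stood at 29.96 CPM (the nearest other at 23), PTGES stood at 13 CPM (the nearest other at 18.3), TUBB2B stood at 19.9 CPM (the nearest other at 15.5) and CDKN2C stood at 66.3 CPM (the nearest other at 58.8). In b2-19 GRB10 stood at 74.5 CPM (the nearest other at 78.6) and VEGFA stood at 123 CPM (the nearest other at 151). In b2-20 BDKRB1 stood at 88.1 CPM (the nearest other at 79.9) and DPYD stood at 10.7 CPM (the nearest other at 7.50).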

How the results depend on the processing

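The 1955 calls at day 7 stayed within 1.5 times under DESeq2 (1747, of which 1655 shared), limma (1942, 1881 shared), DESeq2's size factors, library size alone, no filter, a mean of at least 10 CPM, b2 alone and the removed length trend. They ran from 1405 to 1970 with 1 library left out, and 323 were called without the batch term. With library size alone the share of higher genes among the calls was 31.8%, against 53.7%, and the median log2 change of all tested genes was -0.087, against -0.02. The batch difference was called for 210 genes with limma and 247 with DESeq2, and for 197 to 684 with 1 library left out. Within b2 DESeq2 called 1159, and 955 to 2075 were called with 1 library left out. Of the 176 genes given with values, RBP4 had a log2 change of -0.33 without the batch term, and CEBPD had -0.53 in b2 alone and -0.53 to 0.15 with 1 library left out, the lower without day 7 b1-13. Without the batch term 101 of the 176 lost the call. The causes were not tested. No paired analysis was possible because untreated and day 7 libraries share no replicate numbers. The planned fit of the b2 counts in the other table was not run, since some of its column names match samples of both batches. In the 5 libraries found in both tables, the change of 56 of 1779 called genes differed by over 1.5-fold and 1691 had the same sign. Mean levels differed by over 1.5-fold for 344 of the 1779 and for 17 of the genes given with values, such as 69.3 against 0.982 CPM for LMO7, 49.7 against 1.53 for ATOH8 and 31.3 against 6.94 for EIF2AK2. Depth limits the genes of a few CPM, and the single day 7 library limits b1.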
